A study of Mus musculus with 4 samples.

Results

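Among 2644 neuron nuclei of the mouse cervical spinal cord, 217 (8.21%) held counts for at least 3 of the 7 genes Col24a1, P2rx6, Phldb2, Catspere1, Cgnl1, Slco6c1 and Gm10684, and these 217 Col24a1 P2rx6 nuclei are described here. A neuron nucleus had at least 500 genes with a count and a stored entry for at least 4 of the 6 neuronal genes Rbfox3, Snap25, Syt1, Snhg11, Grin1 and Grin2b. Of 4001 deposited nuclei, 3594 passed the gene minimum and 2644 also the neuronal one. The 7 genes were picked from results of these same data, so their levels in the selected nuclei are a description and support nothing. The working name of the group was large glutamatergic V2a neurons, and the data bear that name out only in part, as given below, so the nuclei are called by their leading genes.

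Single-nucleus RNA sequencing was run on sorted nuclei of female mice that all carried Chx10Cre/+ and ROSA26CAG-LSL-Sun1-sfGFP-Myc/+, alleles with which cells that have expressed the Cre driver, and their descendants, carry a fluorescent nuclear envelope. Libraries uninjured 1 and uninjured 2 came from intact cord, segments C1 to C8. Libraries injured 1 and injured 2 came from segments C3 to C8 taken 5 days after a hemisection at C2, so segment range and injury cannot be told apart. Separate animals are not stated for the libraries, and a p-value here reflects only how far these 4 libraries scatter, which may be technical scatter. Values below are in the order uninjured 1, uninjured 2, injured 1 and injured 2.

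V2a neurons are excitatory interneurons of the ventral spinal cord. They excite motor neurons and other interneurons, take part in locomotion, reaching and breathing circuits, and differ among themselves in how far their axons project. Large, fast-firing spinal neurons are known for neurofilaments, for Kv1 and Kv3 potassium channels that shorten the action potential, and for a perineuronal net of chondroitin sulfate proteoglycans around the cell body.

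Totals per library were 7128996, 13496025, 3982267 and 2901680 counts, and neuron nuclei made up 541 of 563, 1236 of 2075, 495 of 563 and 372 of 393 nuclei past the gene minimum. In uninjured 2, 650 nuclei outside the neurons held counts for at least 3 of 7 oligodendrocyte markers, against 13, 8 and 3 in the other libraries. The deposited matrices hold counts after a subtraction of free RNA, and 53.0% to 60.1% of their stored entries are 0. Such an entry is read here as a gene detected in a nucleus whose count the subtraction then took away; only the files themselves support that reading. The share of nuclei with a stored entry of any value is called the stored share. The subtraction emptied many genes across all selected nuclei at once: of the genes stored in at least 50% of them, 18.4%, 21.7%, 14.3% and 17.8% had 0 counts, against 6.13%, 5.86%, 3.15% and 7.85% in the other neuron nuclei. Stored shares are therefore given beside most levels. The selected nuclei were 53, 76, 62 and 26 in number and the other neuron nuclei 488, 1160, 433 and 346. A summed count of 0 is reached more easily over fewer nuclei, and the genes stored in at least 50% differed between the sets. Those percentages are thus not like for like, and the part of set size in them was not tested. Levels are in CPM, counts scaled to the same total in each library and summed over the nuclei of a library. Stored entries can include free RNA. In the 650 oligodendrocyte nuclei of uninjured 2 (median 1782 counts), the stored share was 3.08% for Slc17a6, 2.31% for Nefh, 1.23% for Fstl1 and between 0% and 2.31% for the 7 genes of the rule.

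The rule genes encode proteins with little in common. Col24a1 (GRCm38 chr3:145292472-145552011, plus strand) encodes a fibrillar collagen chain, and P2rx6 (chr16:17561885-17577800, plus strand, with Slc7a4 on the opposite strand) a subunit of the ATP-gated P2X channels. Phldb2 (chr16:45746243-45953598, minus strand) encodes a protein that anchors microtubules at the cell cortex, Cgnl1 (chr9:71626509-71771602, minus strand) the junction protein paracingulin, and Slco6c1 (chr1:97059038-97128301, minus strand) a member of the organic anion transporter family. Catspere1 (chr1:177808550-177962233, plus strand) belongs to a family of auxiliary subunits of a sperm calcium channel and is annotated as an unprocessed pseudogene in GENCODE M21, and Gm10684 (chr9:45107176-45135606, minus strand) is a long noncoding RNA with Jaml and Scn2b on the opposite strand. The files used here do not say whether counting used strand, so reads of opposite partners may not be told apart.

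The sequences before the starts of 3 rule genes are shown because genes of this group were stored in the same nuclei and because these windows differ in base composition. All are the 250 bases before the RefSeq start in GRCm38.p6, written 5' to 3' on the gene's strand, and none overlaps an annotated exon. All 7 rule genes had an entry. Capitals mark TAATTA, a core that many homeodomain factors recognise, which reads the same on both strands.
Col24a1 (chr3:145292222-145292471, plus strand, 58% G or C): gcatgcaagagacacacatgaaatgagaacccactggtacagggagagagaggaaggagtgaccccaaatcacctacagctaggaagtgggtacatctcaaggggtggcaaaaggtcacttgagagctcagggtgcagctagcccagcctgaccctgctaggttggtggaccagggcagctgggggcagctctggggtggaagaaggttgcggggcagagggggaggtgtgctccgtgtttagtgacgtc
P2rx6 (chr16:17561635-17561884, plus strand, 50.8% G or C): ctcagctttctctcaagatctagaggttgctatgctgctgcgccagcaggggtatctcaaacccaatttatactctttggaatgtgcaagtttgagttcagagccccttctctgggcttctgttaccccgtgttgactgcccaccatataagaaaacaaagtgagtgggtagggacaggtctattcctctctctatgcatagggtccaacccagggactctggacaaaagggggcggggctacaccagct
Catspere1 (chr1:177808169-177808418, plus strand, 40.4% G or C): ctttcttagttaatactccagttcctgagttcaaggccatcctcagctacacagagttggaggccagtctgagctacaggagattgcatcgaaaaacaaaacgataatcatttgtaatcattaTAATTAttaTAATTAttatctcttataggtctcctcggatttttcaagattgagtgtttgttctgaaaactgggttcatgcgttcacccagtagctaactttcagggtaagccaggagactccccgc
Catspere1 held 2 matches to TAATTA and was the only 1 of the 7 windows with any, while 4.84% of 32851 RefSeq promoter windows held it. ATCAAT or its reverse ATTGAT, a core that Onecut factors recognise, was in 0 of the 7 windows and in 6.72% of all windows. A match is a description of the letters, and a missing match says only that those letters are not in this window.

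In the selected nuclei Cgnl1 was the rule gene stored most often, in 100%, 98.7%, 91.9% and 96.2% of nuclei, against 66.6%, 68.0%, 75.3% and 69.1% of other neuron nuclei matched approximately for total counts. P2rx6 was stored in 92.5%, 90.8%, 80.6% and 80.8%, against 35.3%, 35.9%, 58.6% and 41.3%. Col24a1 was stored in 56.6%, 44.7%, 45.2% and 50% and had levels of 66.4, 53.5, 59.6 and 54.1 CPM. The naming gene Col24a1 was thus absent from about as many selected nuclei as held it. Phldb2 was stored in 79.2%, 81.6%, 79.0% and 69.2%, and Gm10684 in 52.8%, 77.6%, 64.5% and 76.9%. Slco6c1 was stored in 45.3%, 38.2%, 38.7% and 42.3%, and Catspere1 in 30.2%, 32.9%, 38.7% and 26.9%. Those shares come from the rule itself. The most common pair with counts was P2rx6 with Cgnl1, in 134 of 217 nuclei (61.8%), followed by Cgnl1 with Gm10684 in 111 (51.2%) and Phldb2 with Cgnl1 in 110 (50.7%). Col24a1 and P2rx6, which give the group its name, had counts together in 51 nuclei (23.5%).

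The threshold cut through a gradient. Among neuron nuclei 1890 had counts for 0 rule genes, 338 for 1 and 199 for 2, just outside the rule, and 111 had counts for 3, just inside it. Counts for 4, 5, 6 and 7 rule genes were found in 64, 29, 11 and 2 nuclei. Nuclei with exactly 3 were 43.4%, 46.1%, 61.3% and 57.7% of the selected nuclei of their libraries.

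The transmitter and lineage genes were examined for the name glutamatergic V2a. Slc17a6, the vesicular glutamate transporter of most spinal excitatory neurons, was stored in 98.1%, 86.8%, 90.3% and 88.5% of Col24a1 P2rx6 nuclei and in 99.0%, 83.1%, 97.1% and 94.3% of matched others. It had 0 counts in the selected nuclei of every library, so it was seen there in stored entries only. Slc17a8, another transporter of this kind, was stored in 5.66%, 9.21%, 12.9% and 19.2% and kept 0, 1.87, 6.42 and 17.1 CPM, from 0, 3, 7 and 6 counts. Slc17a7 was stored in 0% of the selected nuclei. The call of these nuclei as glutamatergic thus rests mainly on stored entries of Slc17a6. The GABA synthesis gene Gad1 was stored in 0%, 5.26%, 0% and 0%, and Gad2 in 1.89%, 3.95%, 0% and 3.85%. Slc6a5, the glycine transporter of glycinergic neurons, was stored in 41.5%, 32.9%, 19.4% and 11.5% of the selected nuclei and in 14.8%, 33.1%, 13.5% and 9.34% of matched others, with levels of 4.42, 24.2, 0 and 5.70 CPM. The stored share of Slc6a5 was lower in both injured libraries than in both uninjured ones, whereas its levels overlapped between the groups.

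Lhx4, a LIM homeodomain factor of the lineage, was stored in 83.0%, 69.7%, 74.2% and 73.1% of Col24a1 P2rx6 nuclei, above the 76.1%, 59.1%, 73.9% and 59.9% of matched others in every library. Sox14 and Shox2, which mark V2 subsets, were stored in 22.4% to 43.4% and 26.9% to 41.5%, on both sides of the matched others. Lhx3, expressed early in the lineage, was stored in 6.58% to 11.5%. Lhx4 was thus stored more often than in the matched neurons of every library, and Sox14 and Shox2 were not. Of 5 measured lineage factors 1 was higher in stored share in all 4 libraries, against 14.3% of all measured genes. In stored share and CPM together 0 were higher in all 4, so Lhx4 was not higher in level throughout.

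Markers of other cell types, the microglial list apart, were nearly empty of counts in the selected nuclei, though not of stored entries. All 7 oligodendrocyte, 5 astrocyte and 5 vascular markers had 0 counts in every library, and the precursor list summed to 2.21, 0, 7.34 and 0 CPM, all of it Vcan. The myelin gene Mbp was nevertheless stored in 43.4%, 36.8%, 30.6% and 42.3% of selected nuclei and in 51.7%, 60.01%, 40.9% and 39.3% of matched others, and Mog, Mag, Mobp, Opalin and Cldn11 in 0% to 11.8% of selected nuclei. Stored shares were 0% to 11.5% for the astrocyte and 0% to 5.66% for the vascular markers. Of the 7 oligodendrocyte markers 3 had a lower stored share than in matched others in every library and 0 a higher one. The 5 microglial markers summed to 162, 275, 68.8 and 171 CPM, of which P2ry12 gave 152, 267, 68.8 and 165 and Cx3cr1 the rest, while Csf1r, C1qa and Ptprc had 0 counts. P2ry12 was stored in 92.5%, 97.4%, 83.9% and 88.5% of selected nuclei. Of 3 measured microglial markers 1 was higher than in matched others in stored share and CPM in every library, and 0 were lower. P2ry12 lies inside the neuronal gene Med12l on the opposite strand. The 6 cholinergic and motor neuron genes summed to at most 2.75 CPM. No doublet caller was run here. Counts of 2 or more markers of other cell types were found in 23 selected nuclei, and 22 had at least 32768 counts. The libraries shared 2 cell barcodes in all and 0 among the selected nuclei.

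Nothing in the data measures cell size. Col24a1 P2rx6 nuclei had medians of 21440, 21240, 12960.5 and 13372 counts, against 9867.5, 7348, 5327 and 6482 in other neuron nuclei, ratios of 2.17, 2.89, 2.43 and 2.06. The rule asks for counts of several genes and so favours deep nuclei. Neuron nuclei of at least 8000 counts were also thinned to 8000 before the rule was applied, and 189, 660, 309 and 229 shallower ones left out. Among the nuclei kept, the ratio of the original medians was 1.40, 1.46, 1.09 and 1.33. The part of leaving out shallow nuclei in these ratios was not tested. At that depth nuclei selected before thinning had medians of 2369, 2023, 2280 and 2185 genes and the others 2294, 1933, 2214 and 2256. Selected nuclei were deeper under either choice, and in injured 2 they did not hold more genes at equal depth.

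Col24a1 P2rx6 nuclei were 53 of 541 neuron nuclei in uninjured 1 (9.80%, exact 95% interval 7.42 to 12.6), 76 of 1236 in uninjured 2 (6.15%, 4.87 to 7.64), 62 of 495 in injured 1 (12.5%, 9.74 to 15.8) and 26 of 372 in injured 2 (6.99%, 4.62 to 10.1). These intervals cover counting error only. The groups overlapped, with uninjured 1 above injured 2. The mean was 7.97% ± 2.58 (SD, n = 2) in uninjured and 9.76% ± 3.91 (SD, n = 2) in injured libraries. The difference of 1.78 points was smaller than the spread between libraries (exact two-sided permutation p 0.667, where 2 libraries against 2 can give no p below 0.33). Thinned to 8000 counts, the shares were 6.25%, 5.90%, 15.6% and 8.39% of 352, 576, 186 and 143 nuclei, with 189, 660, 309 and 229 shallower nuclei left out. Thinning thus placed both injured libraries above both uninjured ones, a difference of 5.92 points at the smallest p the design allows, 0.33 in the exact permutation test. Within the depth range of 8192 to 16384 counts the shares were 5.58%, 4.34%, 22.1% and 9.02%, also higher in both injured libraries. At 16384 to 32768 counts they were 24.03%, 35.5%, 53.1% and 50%. With at least 4 rule genes the difference was -0.528 points, and without injured 1 it was -0.984 points.

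**Figure D1:**
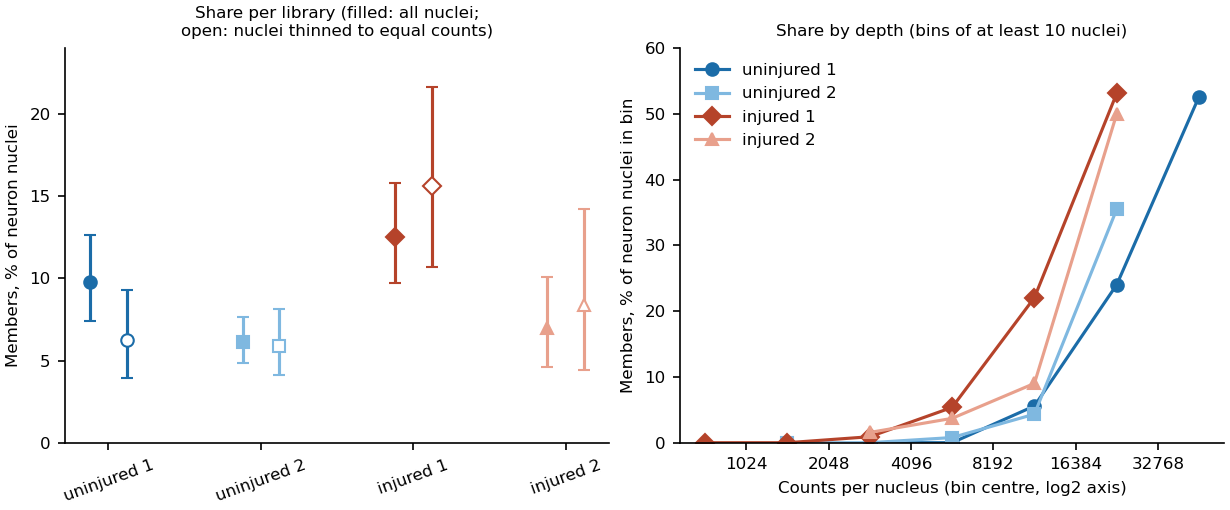
The left plot gives the percentage of neuron nuclei that met the rule in each library, from all nuclei (filled) and from nuclei thinned to 8000 counts (open), with exact 95% intervals, and the right plot gives the percentage in ranges of counts per nucleus on a log2 axis. Unthinned shares of the groups overlap, from 6.15% to 12.5%, and within a range of 8192 to 16384 counts the injured libraries lie at 22.1% and 9.02% and the uninjured ones at 5.58% and 4.34%.

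Which other genes set these nuclei apart was described against other neuron nuclei weighted towards the same total counts within each library. The weighted others remained somewhat shallower, with means of 23048, 19802, 16518 and 13084 counts against 25592, 21165, 17582 and 13502, and the part of this gap in the stored shares was not tested. The nuclei were chosen by expression, so no test was made. Of 15383 genes stored on average in at least 5% of nuclei, 14.3% had a higher and 8.15% a lower stored share in the selected nuclei in all 4 libraries, and the median difference was 0.73 points. Higher in both stored share and CPM in all 4 libraries were 3.55% of genes, and lower in both 3.21%. With at least 50 CPM as well, 185 genes were high and 76 were low, the rule genes not counted. The 20 highest and 10 lowest outside the rule genes are named here, by the mean log2 ratio over the 4 libraries on a scale of CPM + 10.

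Fstl1, which encodes a secreted follistatin-like glycoprotein, led with a mean log2 ratio of 1.49 ± 0.35 (SD over 4 libraries). It was stored in 98.1%, 92.1%, 83.9% and 92.3% of Col24a1 P2rx6 nuclei and in 71.4%, 76.0%, 70.0% and 70.9% of matched others, with levels of 102, 80.2, 83.5 and 168 against 38.9, 29.0, 14.9 and 46.7 CPM. Every library had the higher value in the selected nuclei. Rbm20, a splicing regulator best known from heart muscle, had a log2 ratio of 1.49 ± 0.38 and was stored in 62.3%, 55.3%, 62.9% and 65.4% against 34.5%, 43.8%, 33.3% and 27.5%. Megf11, a transmembrane protein with EGF-like repeats that spaces retinal neurons, followed at 1.23 ± 0.55, stored in 83.0%, 75.0%, 72.6% and 84.6% against 56.5%, 61.6%, 60.8% and 48.7%. Both were separated from the matched others in each library.

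Several named genes act at the cell surface or in synaptic vesicles. Entpd3, an ectonucleotidase that breaks down extracellular ATP, the ligand of P2X channels, had a log2 ratio of 1.09, stood at 60.5, 77.1, 67.9 and 120 CPM against 14.1, 42.2, 35.6 and 42.7, and had nearly equal stored shares in injured 2, 65.4% against 65.2%. Lgr5, a receptor for R-spondins in Wnt signalling, stood at 217, 269, 243 and 310 CPM against 78.1, 163, 122 and 205 and was stored in 90.8% to 100% of selected nuclei against 74.4% to 85.7%. Sv2b, a synaptic vesicle glycoprotein, stood at 305, 330, 204 and 273 CPM against 136, 194, 95.3 and 134 and was stored in 90.3% to 94.3% against 69.5% to 79.3%. Kcna1, the Kv1.1 potassium channel, stood at 553, 375, 246 and 461 CPM against 212, 210, 110 and 340 and was stored in 96.2% to 100% against 93.5% to 96.4%. In all of these the selected nuclei were higher in every library.

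Others encode nuclear, cytoskeletal and RNA-binding proteins. Aff1, a subunit of the super elongation complex, had a log2 ratio of 1.08 ± 0.70 and stood at 290, 176, 212 and 157 CPM against 71.1, 78.4, 88.0 and 136, with stored shares of 90.3% to 96.2% against 64.3% to 71.5%. Pls1, the actin bundler plastin 1, had the most even ratio of the 20, 1.07 ± 0.10. L3mbtl4, a chromatin reader, had 1.05 ± 0.18 and was stored in 90.6%, 81.6%, 85.5% and 88.5% against 54.5%, 59.1%, 70.0% and 59.7%. Mitf, a basic helix-loop-helix factor, had 0.99 ± 0.13, and Bicc1, an RNA-binding protein, 0.87 ± 0.30. The other 8 were Mir124a-1hg (1.21), Rnf207 (1.05), Grip1os2 (0.99), Xpnpep1 (0.97), Etl4 (0.94), Ccdc136 (0.91), Stpg2 (0.88) and Steap2 (0.87). Grip1os2 is an antisense RNA of Grip1 and Rnf207 overlaps Icmt, so counts of these pairs may not be told apart.

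**Figure D2:**
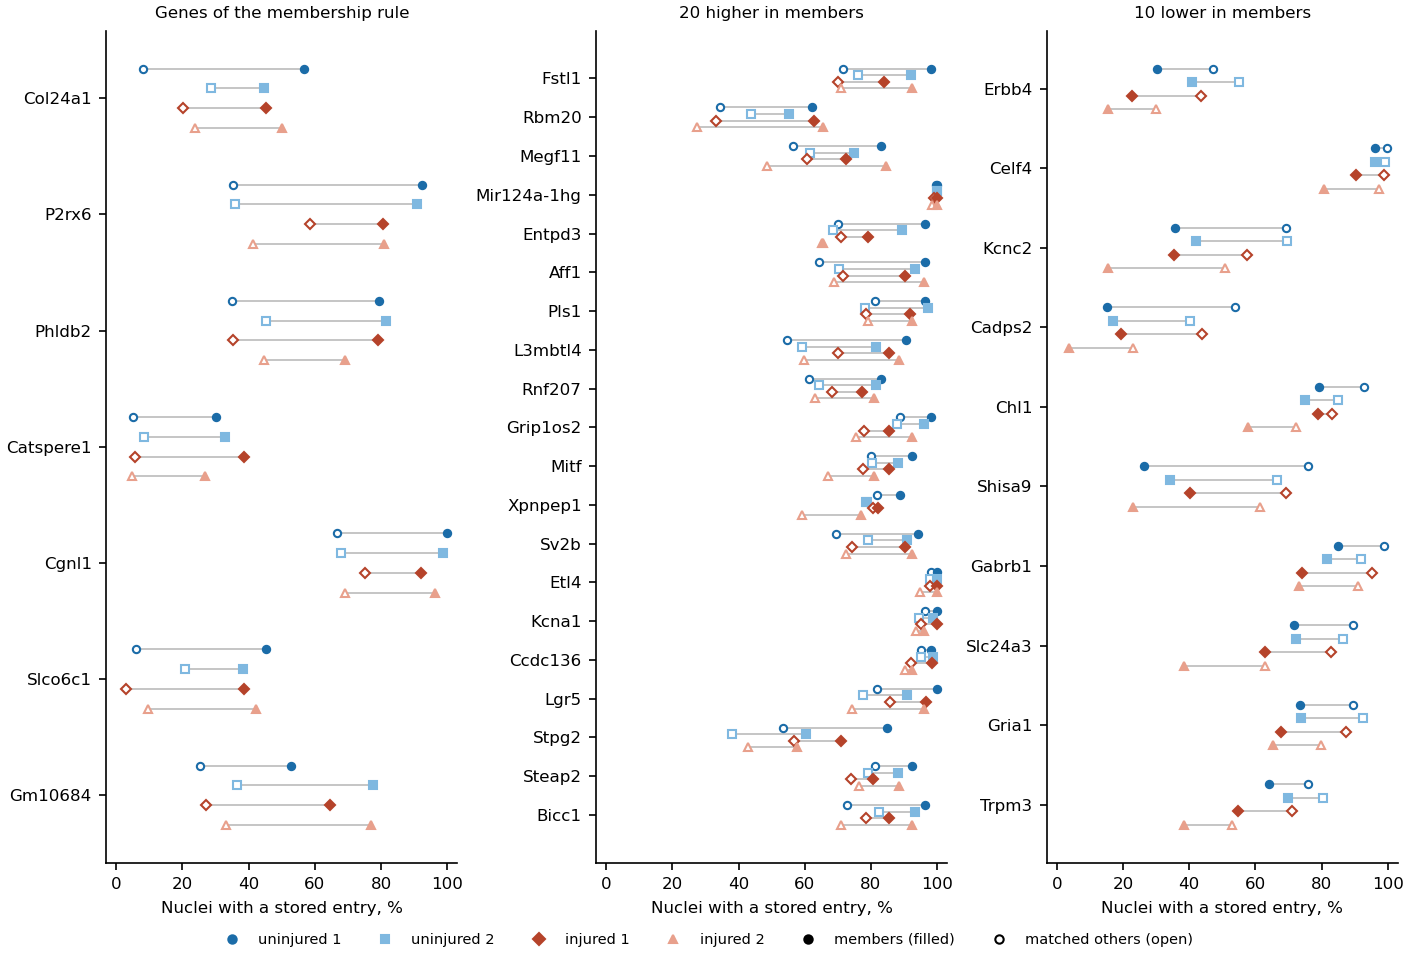
Percentage of nuclei with a stored entry for the 7 genes of the rule, the 20 genes highest and the 10 lowest in Col24a1 P2rx6 nuclei, by library, with selected nuclei filled and depth-matched other neuron nuclei open. Fstl1 is stored in 83.9% to 98.1% of selected nuclei against 70.0% to 76.0% of the others, and Shisa9 in 23.1% to 40.3% against 61.5% to 75.9%.

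The 10 lowest genes were lower than in matched others in every library, in both stored share and level. Erbb4, the neuregulin receptor, was stored in 30.2%, 40.8%, 22.6% and 15.4% of Col24a1 P2rx6 nuclei and in 47.2%, 55.2%, 43.6% and 30.1% of matched others. Its level was 5.90, 0, 0 and 0 CPM against 468, 464, 157 and 173. Erbb4 was also stored in 89.8% of the oligodendrocyte nuclei of uninjured 2, so its stored entries can hold free RNA, and the part of this in the result was not tested. Kcnc2, a Kv3 potassium channel subunit, was stored in 35.8%, 42.1%, 35.5% and 15.4% against 69.2%, 69.6%, 57.4% and 50.7%. Shisa9, an auxiliary subunit of AMPA receptors, was stored in 26.4%, 34.2%, 40.3% and 23.1% against 75.9%, 66.4%, 69.3% and 61.5%. These genes were lower in every library.

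Cadps2, a priming factor of dense-core vesicles, was stored in 15.1%, 17.1%, 19.4% and 3.85% of selected nuclei against 53.8%, 40.3%, 43.8% and 23.0%, and had 0 counts in all 4 libraries. Gabrb1, a GABA-A receptor subunit that overlaps Gabra4 in the annotation, was stored in 84.9%, 81.6%, 74.2% and 73.1% against 98.8%, 91.9%, 95.2% and 90.9%, with 50.1, 160, 238 and 0 CPM against 875, 659, 605 and 352. Gria1, an AMPA receptor subunit, was stored in 73.6%, 73.7%, 67.7% and 65.4% against 89.5%, 92.6%, 87.5% and 79.7%. These were lower in both readouts. Celf4 (-4.42), Chl1 (-3.36), Slc24a3 (-3.04) and Trpm3 (-3.0) completed the low group on the mean log2 ratio. Celf4, an RNA-binding protein, was stored in 80.8% to 96.2% of selected nuclei while its counts were 0 in 3 libraries. Its log2 ratio thus rests on counts of 0 in nuclei that mostly had a stored entry.

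Gene lists for the neuron's parts were read by stored share, as the number of measured members higher or lower in all 4 libraries, beside the 14.3% and 8.15% of all measured genes. These lists were chosen with earlier results of these data known. Of 8 neurofilament and large neuron genes 6 were higher and 0 lower, with a median difference of 10.1 points. In stored share and CPM together 0 of the 8 were higher in all 4 libraries, against 3.55% of all measured genes. The median log2 ratio of the list was 0. Nefh, the heavy neurofilament chain, was stored in 79.2%, 84.2%, 71.0% and 73.1% against 53.6%, 54.0%, 61.7% and 72.6%. Spp1, osteopontin, which marks fast motor neurons and other large neurons, was stored in 30.2%, 35.5%, 30.6% and 50% against 8.31%, 16.6%, 12.4% and 29.2%. Nefl, Nefm, Vamp1 and Tubb3 were also higher in every library. The deposited counts gave no second readout of Spp1, Nefl, Vamp1 and Tubb3, which had 0 counts in the selected nuclei of all libraries. Such abundant transcripts of large neurons can be free RNA, and in the oligodendrocyte nuclei of uninjured 2 Nefh and Spp1 were stored in 2.31% and 0.923%.

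Of 11 perineuronal net and matrix genes 4 were higher, namely Hapln1, Hapln4, Bcan and Has3, and 0 lower. In stored share and CPM together 1 of the 11 was higher in all 4 libraries (9.09%, against 3.55% of all measured genes). The median log2 ratio of the list was 0, and Bcan stood at 0, 62.8, 24.8 and 0 CPM in the selected nuclei. Hapln1, a link protein of the net, was stored in 86.8%, 75.0%, 62.9% and 50% against 42.7%, 47.4%, 38.9% and 46.6%. Acan, the proteoglycan aggrecan, was stored in 67.9%, 57.9%, 40.3% and 50% against 33.1%, 38.2%, 42.7% and 36.4%, so it was higher in 3 libraries and lower in injured 1. Among 10 sodium channel genes 3 were higher and 2 lower, the latter Scn3a and Scn3b. In stored share and CPM together 0 of the 10 were higher in all 4 libraries and 2 lower. Scn4b, an auxiliary beta subunit tied to resurgent current, was stored in 64.2%, 61.8%, 51.6% and 65.4% against 43.8%, 41.0%, 37.6% and 61.9%. The large pore subunits Scn1a, Scn2a, Scn8a and Scn9a were stored in at least 88.5% of selected nuclei in every library.

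Potassium channels had 4 of 29 members higher and 14 lower. Among the higher were Kcna1 and Kcna2, low-threshold Kv1 subunits, and Kcnj3, an inward rectifier. Lower were Kcnc2, Kcnt2, Kcnn3, Kcnd3, Kcnk2, Kcnc4, Kcna4 and 7 more. Kcnd3, a Kv4 subunit of the A-type current, was stored in 26.4%, 31.6%, 25.8% and 23.1% against 58.6%, 62.4%, 40.8% and 27.8%. Kcnn3, a calcium-activated SK channel, was stored in 9.43%, 10.5%, 12.9% and 3.85% against 42.2%, 34.8%, 33.2% and 16.1%. Kcnt2, a sodium-activated channel, was stored in 56.6%, 53.9%, 59.7% and 30.8% against 86.7%, 79.7%, 75.3% and 65.4%. Each of these was lower in the selected nuclei of every library.

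Of 12 pacemaker and TRP channel genes 6 were lower and 0 higher, among the lower Trpc5, Trpc6 and Trpm3, which encode cation channels. Trpc5 was stored in 60.4%, 71.1%, 67.7% and 50% against 79.5%, 78.4%, 79.1% and 50.3%.

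Among 16 GABA-A and glycine receptor genes Gabra5 and Gabrb2 were higher, and Gabrb1, Gabrg1, Gabrg3, Glra2 and Glra3 lower. In stored share and CPM together 0 of the 16 were higher in every library and 5 lower. Glra2, a glycine receptor subunit, was stored in 26.4%, 26.3%, 27.4% and 15.4% against 63.2%, 49.2%, 45.1% and 38.6%. Glra1, the adult alpha subunit, was stored in 98.4% to 100% of selected nuclei and stood at 503, 503, 483 and 422 CPM against 388, 387, 353 and 385. Of 18 AMPA, kainate, NMDA and delta receptor genes 4 were higher and only Gria1 lower. Gria4, which forms fast AMPA receptors, was stored in every selected nucleus. Among 13 serotonin and monoamine receptor genes Adra1a was higher and Htr1f, Htr2a, Htr4, Htr5a and Adra1b were lower. Adra1a, an alpha-1 adrenergic receptor, stood at 133, 168, 153 and 171 CPM against 106, 68.2, 129 and 93.0, and was stored in 69.2% to 81.1% against 68.3% to 79.4%. Chrm3, a muscarinic receptor, was stored in 90.6%, 89.5%, 85.5% and 80.8% against 82.1%, 78.6%, 78.4% and 70.4%. Of the other P2X receptors P2rx5 was stored in 39.6%, 55.3%, 24.2% and 57.7% against 30.7%, 41.4%, 19.8% and 34.8%, and P2rx4 in 42.3% to 58.5% on both sides of the matched others.

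**Figure D3:**
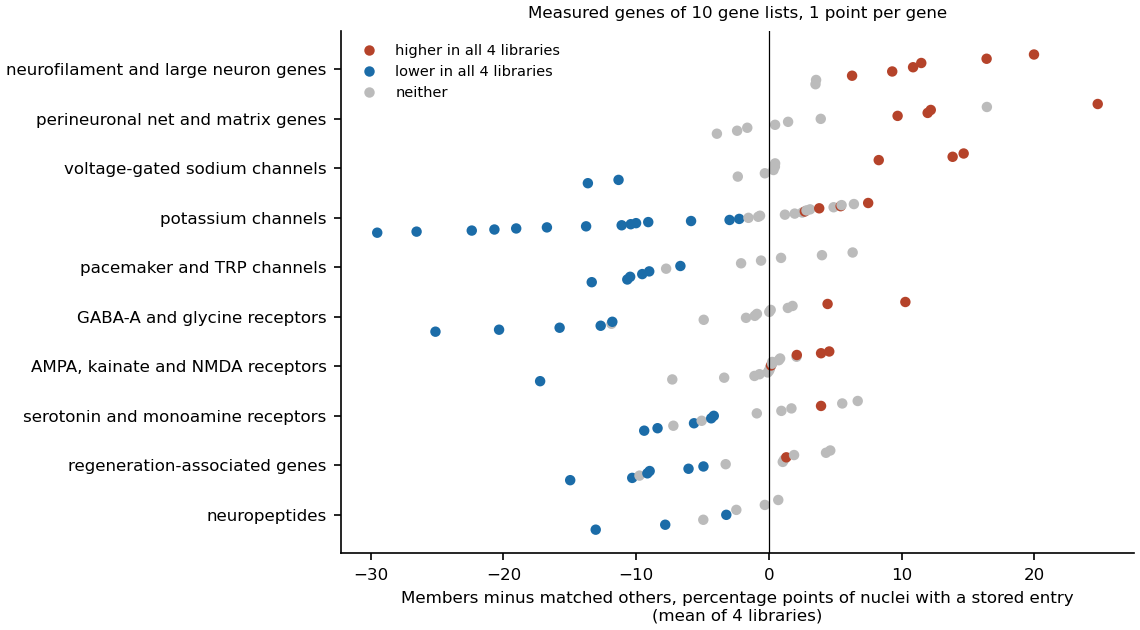
Each point is 1 measured gene of 10 lists, placed by the mean over 4 libraries of its stored share in Col24a1 P2rx6 nuclei minus that in matched other neuron nuclei, in percentage points. Neurofilament and large neuron genes lie to the right, 6 of 8 higher in every library, and potassium, pacemaker and TRP channel genes lie mostly to the left.

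Genes of wiring and position varied in both directions. Of 25 semaphorin, plexin, netrin and Slit receptor genes 10 were higher and 4 lower. Sema5b was stored in 86.8%, 75.0%, 72.6% and 76.9% against 57.4%, 62.0%, 57.5% and 49.3%, whereas its relative Sema5a was stored in 28.3%, 32.9%, 33.9% and 26.9% against 44.1%, 53.1%, 53.6% and 31.5%. Of 14 Eph receptor and ephrin genes 2 were higher and 5 lower, among the latter Epha3 and Epha7. Of 14 classical cadherins 5 were higher and only Cdh11 lower, and of 26 synaptic adhesion genes 8 were higher and 2 lower. In stored share and CPM together fewer genes differed in all 4 libraries. The guidance list then had 1 higher and 3 lower, and the Eph and ephrin list 0 and 2. The cadherins had 1 and 0, and the synaptic adhesion genes 0 and 1. Of all measured genes 3.55% were higher and 3.21% lower in both. Of 18 collagens besides Col24a1, Col19a1, Col4a5 and Col5a3 were higher and Col25a1, Col8a1 and Col11a2 lower. Col4a5, a basement membrane chain, was stored in 62.3%, 59.2%, 54.8% and 53.8% against 41.0%, 34.0%, 33.8% and 47.0%.

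Transcription factors reported to mark projection neurons had Onecut2 and Zfhx3 higher and 3 lower of 8, Foxp1 among the latter. Those of local neurons had Nfia higher and 4 of 6 lower, Nfib among them. Nfia was stored in 98.1%, 98.7%, 98.4% and 96.2% against 87.1%, 89.0%, 91.8% and 89.8%, while Nfib had 0 counts in the selected nuclei and 72.1, 45.8, 76.8 and 34.6 CPM in the others. Zfhx3 was higher in stored share in every library but lower in level, 132, 292, 457 and 234 against 1332, 833, 604 and 721 CPM, so its readouts differed in sign. Of 12 rostral Hox genes 1 was higher and 2 lower, and of 10 caudal ones 2 and 1. Hoxc8, a caudal cervical and thoracic gene, was stored in 30.2%, 26.3%, 24.2% and 53.8% against 12.03%, 22.3%, 22.0% and 27.4%.

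Of 14 regeneration-associated genes Stmn2 was higher and Gap43, Klf7, Basp1, Ecel1, Stmn4 and Tubb2b were lower. Gap43, the growth cone protein, was stored in 73.6%, 73.7%, 61.3% and 65.4% against 90.6%, 84.7%, 81.8% and 76.6%. Of 14 neurotrophic genes Ret, Gfra1 and Ntrk3 were higher, the first 2 encoding the signalling and binding chains of the GDNF receptor. Ret was stored in 47.2%, 50%, 45.2% and 50% against 29.1%, 32.5%, 36.7% and 30.4%. Bdnf was stored in 37.7%, 30.3%, 17.7% and 3.85% against 41.8%, 40.1%, 35.8% and 28.3%. Neuropeptide genes were rarely stored, and 0 of 7 were higher and 3 lower. Genes that name other neuron groups of these libraries had 1 of 20 higher and 6 lower, among the lower Col8a1, Ebf2, Hgf and Pde3a.

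The differences followed the number of rule genes and were present below the threshold. The genes below were picked for differing between selected and other nuclei of these data. A difference between the lowest and highest classes thus came with that choice, and the values are a description. Among nuclei of 8192 to 32768 counts, 662 had counts for 0 rule genes, 201 for 1, 147 for 2, 91 for 3 and 84 for 4 or more. The mean stored share of Fstl1 over these classes was 54.5%, 71.3%, 81.7%, 92.2% and 94.7%. That of Spp1 was 5.67%, 13.4%, 25.4%, 31.7% and 42.0%, and that of Hapln1 23.1%, 43.9%, 53.6%, 70.1% and 69.3%. Kcnc2 had 77.8%, 49.6%, 39.2%, 41.9% and 22.9%, and Shisa9 74.4%, 63.0%, 46.8%, 42.1% and 16.03%. Erbb4 had 44.8%, 39.7%, 28.0%, 28.0% and 23.2%, and Celf4 had 99.0%, 98.8%, 97.8%, 95.6% and 88.4%. Glra2 had 56.0%, 40.0%, 35.4%, 22.0% and 28.0%, so its lowest value was at 3 rule genes. Nuclei with 1 or 2 rule genes lay between those with 0 and those with 4 or more for each of these genes. Median counts within the window were higher in the upper classes too, from 12159, 10650, 11167.5 and 9886 at 0 rule genes to 20515, 21533, 17404.5 and 17269 at 4 or more, and the part of depth in the trend was not tested.

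**Figure D4:**
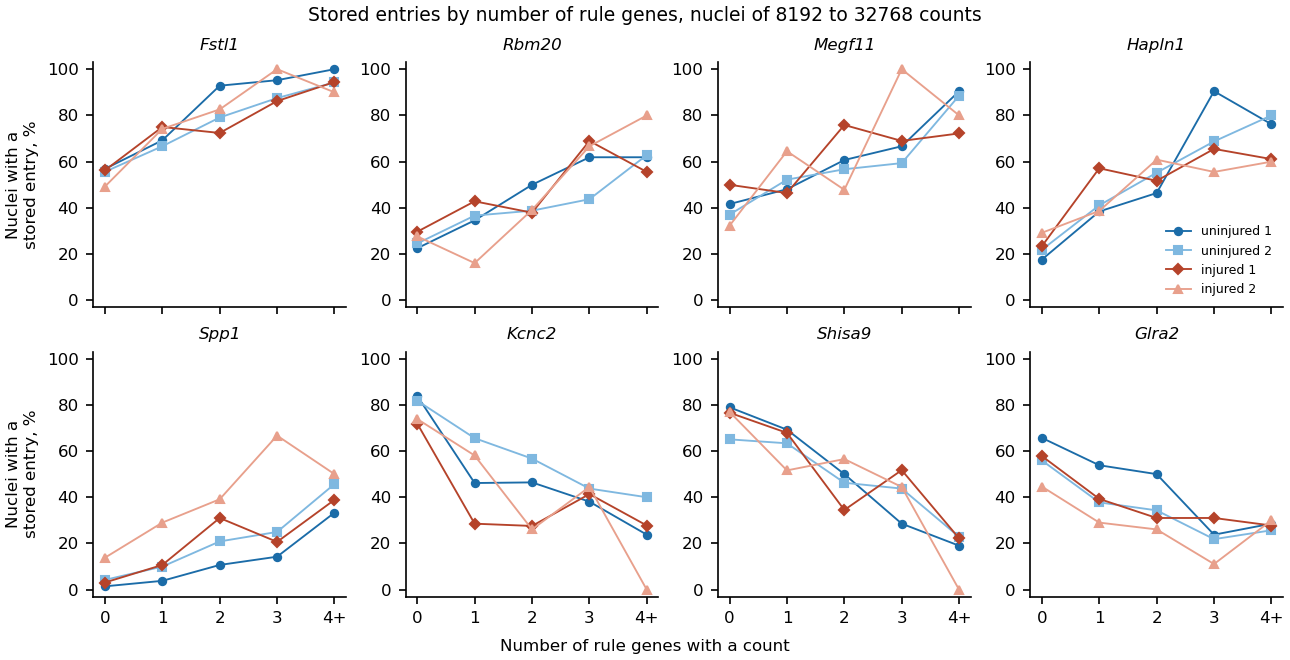
Percentage of nuclei with a stored entry for 8 genes, by the number of rule genes with a count, in nuclei of 8192 to 32768 counts, 1 line per library. Mean stored shares run upward for Fstl1, from 54.5% to 94.7%, and downward for Shisa9, from 74.4% to 16.03%.

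Injury was the comparison the rule did not use. Counts were summed over the selected nuclei of each library and tested by injury, with 2 libraries on each side. No gene of 6858 passed in edgeR (0% called), and 86 had an unadjusted p under 0.05 (1.25%). RLE scaling in edgeR called 0 (87 at that p), limma-trend 0 (124), and DESeq2 called Pnn and Sbf1 (68 at that p). Of the 86 genes, 38.4% had 0 counts in a library although stored in at least 20% of its selected nuclei, against 13.2% of all tested. The genes of smallest p are given below with their values, and none passed (adjusted p 1.00 in edgeR for each). On simulated counts the same test recovered 63 of 100 genes changed 4-fold and 95 of 100 changed 8-fold. The simulation set the same fixed dispersion for every gene, changed only genes with higher counts and emptied no gene. Recovery in the real counts was not measured and may be lower.

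Among genes with higher values after injury, Sbf1, a pseudophosphatase of the myotubularin family, stood at 0, 0, 47.7 and 48.4 CPM. Pnn, a splicing-associated protein, stood at 0, 0, 42.2 and 42.7, and Gps2, a corepressor subunit, at 0, 0, 33.0 and 39.9. The groups did not overlap. Genes named here and below were picked by small p, which favours groups without overlap. The share of all tested genes without overlap was not counted. No fold is given, since the 0 in the uninjured libraries stands beside many stored entries and sets no sampling floor. Stored shares did not go with these counts. Sbf1 was stored in 81.1%, 78.9%, 67.7% and 80.8%, Pnn in 96.2%, 94.7%, 83.9% and 96.2%, and Gps2 in 84.9%, 69.7%, 59.7% and 65.4%. In none of the 3 genes did both injured libraries lie above both uninjured ones in stored share. Levels in the other neuron nuclei had a like order, 0, 0.305, 57.5 and 27.2 CPM for Sbf1 and 0.350, 0, 59.3 and 19.2 CPM for Pnn, and DESeq2 called both genes there too.

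Ptprz1, a receptor phosphatase that binds chondroitin sulfate proteoglycans and pleiotrophin, stood at 3.69, 5.60, 53.2 and 34.2 CPM, a log2 fold change of 3.23 (SE 0.74), with stored shares of 71.7%, 59.2%, 61.3% and 65.4% that overlapped. Gpc5, a glypican, stood at 304, 275, 625 and 447 CPM (log2 fold change 0.93, SE 0.26), and its stored share was 94.3%, 85.5%, 91.9% and 76.9%. Il1rap, the accessory chain of the interleukin-1 receptor, stood at 48.7, 31.1, 91.7 and 96.9 CPM (1.28, SE 0.39) and was stored in 73.6%, 81.6%, 74.2% and 73.1%. Levels of these genes, picked by smallest p, did not overlap between groups, whereas stored shares did. Ewsr1, an RNA-binding protein that overlaps Rhbdd3, had a log2 fold change of 0.90, and Mri1, a methionine salvage enzyme, 2.08.

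Among genes with lower values, Htr2c, a metabotropic serotonin receptor, measured 824, 896, 523 and 422 CPM, a log2 fold change of -0.83 (SE 0.24), and was stored in 94.3%, 90.8%, 88.7% and 88.5%. Lrrtm1, a postsynaptic adhesion protein that lies within Ctnna2, stood at 35.4, 46.0, 7.34 and 11.4 CPM (-2.14, SE 0.67) and was stored in 71.7%, 75.0%, 48.4% and 42.3%. Zfp81, a zinc finger protein, stood at 107, 116, 42.2 and 59.8 CPM (-1.13, SE 0.36) and was stored in 92.5%, 93.4%, 58.1% and 65.4%. In these 3 genes both readouts were lower in both injured libraries. Median counts per selected nucleus were lower there too, as given above, and the part of depth in the stored shares was not tested. In the other neuron nuclei, not weighted for depth, levels of these 3 genes were also lower in both injured libraries. They were 1240, 1028, 895 and 884 CPM for Htr2c and 45.7, 60.9, 9.71 and 30.8 for Lrrtm1. Zfp81 stood at 57.9, 59.2, 48.5 and 47.6 CPM there. Igf2r, which overlaps Airn, stood at 161, 167, 78.9 and 94.0 CPM and was stored in 98.1%, 92.1%, 85.5% and 88.5%. The log2 fold changes were -0.92 for Macrod2os1, an antisense RNA of Macrod2, -1.97 for Hsf2, a heat shock factor, -1.13 for Hacd4, which overlaps Focad, and -1.45 for Fbxl5, an iron-sensing ubiquitin ligase subunit that overlaps Bst1.

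**Figure D5:**
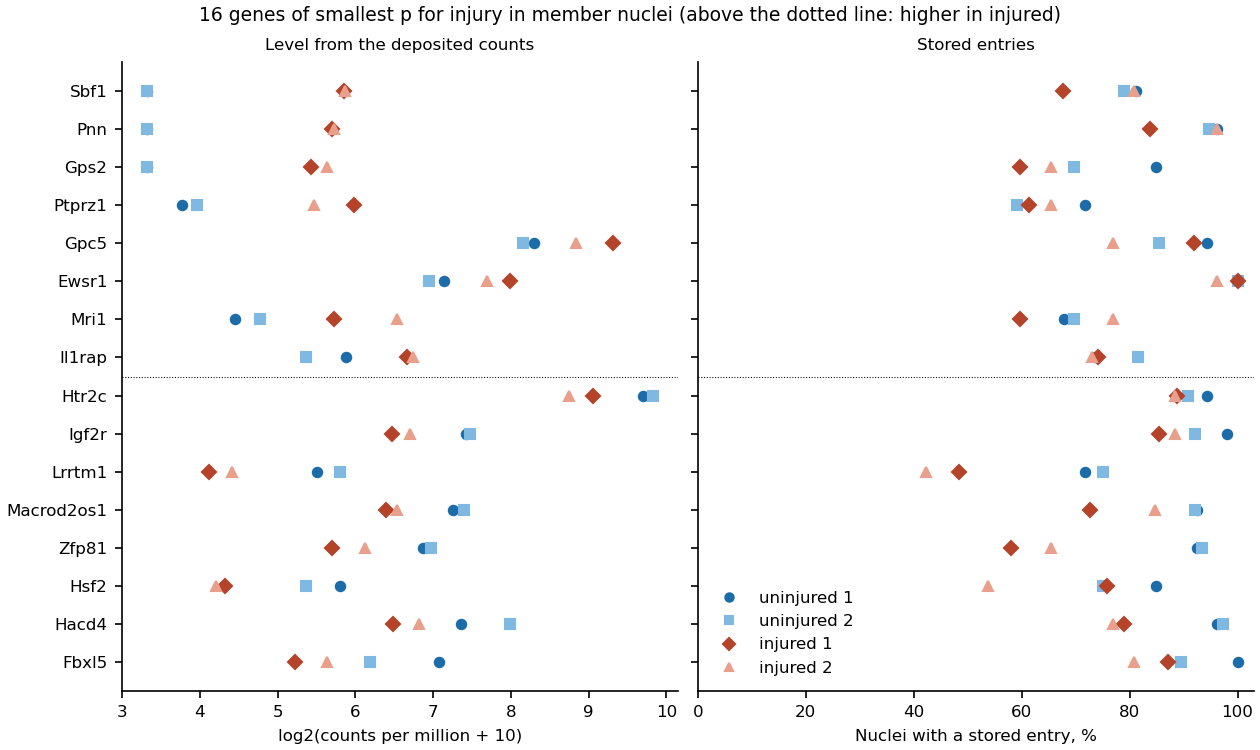
The left plot gives log2(CPM + 10) and the right plot the percentage of nuclei with a stored entry for the 16 genes of smallest p, by library, with the 8 higher after injury above the dotted line (in Sbf1, Pnn and Gps2 both uninjured points lie on each other at 0 CPM). Sbf1 has 0 CPM in both uninjured libraries yet is stored in 81.1% and 78.9% of their selected nuclei, whereas Lrrtm1 and Zfp81 are lower in injured libraries on both scales.

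No list had a member that passed. Outside the rule genes 52.6% of 6851 genes had positive and 47.4% negative log2 fold changes, with a median of 0.03. Of 12 GABA-A and glycine receptor genes 9 were negative (median -0.18), of 23 synaptic adhesion genes 16 (median -0.12), of 6 sodium channel genes 5 (median -0.23) and of 19 potassium channel genes 10. Nrxn2, a presynaptic neurexin, was the exception with the smallest p in the adhesion list besides Lrrtm1, at 40.6, 54.7, 110 and 85.5 CPM (log2 fold change 1.06, SE 0.41, adjusted p 1.00 in edgeR), with stored shares of 98.1%, 93.4%, 96.8% and 92.3% that overlapped. Of 13 cadherins 9 were positive (median 0.18). Cdh10, a type II cadherin, stood at 306, 324, 429 and 436 CPM without overlap, while its stored share was 100%, 100%, 98.4% and 92.3%. Of 15 guidance genes 7 were positive and 8 negative, with Sema3a, a repulsive semaphorin, at 153, 140, 214 and 214 CPM and stored in 79.2%, 68.4%, 77.4% and 80.8%. Of 18 regeneration-associated genes 3 could be tested, Flrt3, Stat3 and Klf7, and all had positive log2 fold changes (0.47, 1.23 and 0.58, SE 0.42, 1.83 and 1.66). Levels of Stat3 and Klf7 overlapped between groups. The stored shares of all 3 were lower in both injured libraries, with Flrt3 at 88.7%, 86.8%, 80.6% and 76.9% and Klf7 at 69.8%, 69.7%, 56.5% and 42.3%. Of the immediate early genes, neuropeptides and neurofilament genes 0 could be tested. Gap43 and Basp1 had 0 counts in the selected nuclei of all libraries.

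Whether injury differences departed from those of the other neuron nuclei was asked of the interaction between injury and membership, fitted with a term for each library, and these others were not weighted for depth. No gene of 9857 passed in edgeR (0% called, smallest adjusted p 0.135), with 471 at an unadjusted p under 0.05 and 0 calls under RLE scaling. In the other neuron nuclei injury called 0 of 10869 genes in edgeR (0%, 269 at an unadjusted p under 0.05) and 9 in DESeq2, namely Erbb4, Leng9, Mrps28, Nsmf, Pnn, Sbf1, Srsf1, Sv2a and Taf7. On counts simulated in the same way the interaction recovered 19 of 100 genes at 4-fold and 59 of 100 at 8-fold. A difference of 4-fold would thus mostly be missed even there. Cdh8, a type II cadherin, stood at 309, 362, 479 and 442 CPM in the selected nuclei and at 726, 929, 572 and 548 CPM in the others, a difference of log2 fold changes of 1.15 (SE 0.19, adjusted p 0.135 in edgeR). Its levels were thus higher after injury in the selected nuclei and lower in the others, without overlap in either, whereas its stored shares in the selected nuclei, 88.7%, 86.8%, 98.4% and 84.6%, overlapped. Ptprz1 stood at 78.9, 67.5, 73.7 and 86.1 CPM in the other nuclei, and its interaction was 3.26 (SE 0.54, adjusted p 0.135 in edgeR). Gpc5 stood at 947, 1327, 714 and 779 CPM in the other nuclei, lower after injury without overlap, where the selected nuclei were higher (interaction 1.60, SE 0.27, adjusted p 0.135 in edgeR).

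Pabpn1, a nuclear poly(A)-binding protein, stood at 8.85, 0, 109 and 59.8 CPM in the selected nuclei and at 133, 24.5, 129 and 83.3 CPM in the others (4.08, SE 0.58, adjusted p 0.135 in edgeR), while its stored share in the selected nuclei was 95.2% to 98.1%. The smallest p also named Kcnc2, whose selected nuclei held counts only in injured 1, 22.0 CPM. Of genes with negative interactions Aff1 had -1.35 (SE 0.30, adjusted p 0.379 in edgeR), with 290, 176, 212 and 157 CPM in the selected nuclei against 51.1, 20.2, 72.6 and 74.5 in the others. Dach2, a transcription cofactor, stood at 111, 50.4, 34.9 and 48.4 CPM in the selected nuclei and 263, 113, 209 and 219 CPM in the others, where its groups overlapped, was stored in 39.5% to 60.4% of the selected nuclei, and had -1.08 (SE 0.29, adjusted p 0.599 in edgeR). Scg5, a secretory granule protein, stood at 8.11, 9.95, 0 and 0 CPM in the selected nuclei, yet was stored in 100% of those of both injured libraries. Arf4, a small GTPase, stood at 29.5, 0, 0 and 0 CPM, so its groups overlapped. With at least 4 rule genes the interaction called 61 genes, 40 of them with 0 counts in the selected nuclei of a library, and without nuclei of at least 32768 counts it called 6, among them Cdh8, Kcnc2 and Pabpn1.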

How the data were processed

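The members and the 39 gene lists were chosen with earlier results of these data known. The authors deposited whole-number counts of unique molecular identifiers for 32285 genes per nucleus after a subtraction of free RNA by SoupX, which the deposited matrices name. Reads were handled by programs of which Cell Ranger, the build mm10 and Seurat 5.0.0 are listed, with no role, per the submitters' processing notes; settings and strand use are not given in the sources here. Positions are from GENCODE M21 on GRCm38, the same assembly, with 547 of 548 listed and named genes matched once.

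Nuclei were selected as the report states and not clustered. Other neuron nuclei were weighted to the selected nuclei in bins of 0.5 log2 counts, and log2 ratios used CPM + 10. Counts summed per library were tested in edgeR 4.0.16 by quasi-likelihood under R 4.3.3 (TMM, filterByExpr, Benjamini-Hochberg, threshold 0.05), with limma 3.58.1 and DESeq2 1.42.0 as alternatives. Both edgeR fits were tested on simulated data, with 2 false calls each. Python 3.11.15, numpy 2.4.6 and scipy 1.17.1 did the rest.

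Named genes are the 7 rule genes, the 20 highest and 10 lowest mean log2 ratios (at least 50 CPM in every library, same direction in both readouts, no predicted-gene symbols), the 8 smallest p per direction for injury (mean log2 CPM of at least 4), the 4 per direction for the interaction, and up to 4 per list by ratio and 3 by p. List members outside that rule were named after their values were seen, as were Spp1, Hapln1 and Glra2 in the gradient. Shisa9, from the 10 lowest genes, was picked for the gradient along with them. The gradient otherwise took the 3 highest and 3 lowest genes, of which Erbb4 and Celf4 are not drawn. Summed counts of the selected nuclei limit the precision, since 26 to 76 nuclei stand behind each library. Results for some genes are not reported here.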

Additional observations from a re-analysis of the deposited data

How the results depend on the processing

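The labels number replicates 1 and 2 in both groups, but nothing says that a number is shared, and deviations of same-numbered libraries did not correlate over 6858 genes (-0.03). With the replicate number as a block, edgeR called 0 genes for injury in the selected nuclei (47 at an unadjusted p under 0.05) and 0 in the others. For injury in the selected nuclei, DESeq2 called 2 genes and edgeR without a filter 17, of which 15 had 0 counts in a library. Each library left out in turn gave 0 calls, as did 2 or more and 4 or more rule genes (664, 200, 131 and 90 genes at an unadjusted p under 0.05 without uninjured 1, uninjured 2, injured 1 and injured 2). In the other neuron nuclei DESeq2 called 9, no filter 18, and leaving out a library 0 to 437 (437 without uninjured 1, 27 without uninjured 2). The interaction called 94 without a filter, 61 with at least 4 rule genes, 1 (Vat1l) without nuclei of 2 or more other-cell markers, 6 without nuclei of 32768 or more counts, a setting chosen after seeing the data, and 0 to 249 without 1 library (249 without uninjured 1, 56 without uninjured 2, 5 without injured 2). Where this left a group with 1 library, that library was assumed to vary like the others. Of the 94, 61 and 249 calls, 55, 40 and 136 had 0 counts in the selected nuclei of a library.

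The share of selected nuclei differed by -0.528 points with at least 4 rule genes, and by -0.984 (without injured 1) to 4.55 points with a library left out, with -0.0394 without uninjured 2. Genes high in the selected nuclei numbered 624 without depth matching and 262 to 353 without 1 library, where fewer libraries must match. Low genes numbered 17 without matching, 47 with at least 4 rule genes and 101 to 164 without 1 library. All 20 named high genes kept the rule without matching and 17 with at least 4 rule genes, and of the 10 low genes 6 and 7 did. For the other combinations of named genes and settings, 211 of 216 injury values and 59 of 83 interaction values kept direction and call. Their size was not judged, and the rest of them passed the threshold. Of 240 ratios 225 kept direction and changed by less than their SD over libraries, and the other ratios moved further. None of these values reversed. Depth per library, 26 selected nuclei in injured 2, and counts taken to 0 limit what could be called.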
